A study of Mus musculus with 2 samples.

Results

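A set of 5 secreted or shed factors that draw or sustain monocytes and macrophages was followed through the cells of a mouse mammary tumor vessel experiment. They were Ccl2 (ENSMUSG00000035385), Ccl7 (ENSMUSG00000035373), Csf1 (ENSMUSG00000014599), Il34 (ENSMUSG00000031750) and Cx3cl1 (ENSMUSG00000031778), 5 of the 33696 genes counted. The genes were chosen because of their levels in these libraries, so every level and ratio below is a description and no test was made. Tumors of 2 sublines of the MMTV-PyMT model, in which the mouse mammary tumor virus promoter drives the polyoma middle T oncogene in mammary epithelium, were grown in the mammary fat pad of female C57BL/6 mice. PyMT-M is the subline with many macrophages (High-MAC) and PyMT-N the one with few (Low-MAC). From each subline 3 tumors were pooled, depleted of CD45+ and Ter119+ cells (leukocytes and red cells), enriched with CD31 and CD144 beads and sorted for CD31+ CD144+ cells. Each pool gave 1 droplet-based library of 3′ transcript ends, so there was 1 library per condition, and subline, pool and library cannot be told apart.

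Cells with at least 200 detected genes and at most 10% mitochondrial counts were kept, 6719 in PyMT-M and 5607 in PyMT-N, with medians of 21262 and 18558 UMIs (counted molecules) per cell. The cells were placed in 5 classes by marker counts, and a cell could meet more than 1 rule. Blood endothelial cells (at least 5 UMIs of Pecam1, Flt1, Emcn and Kdr and at most 1 of Krt8, Krt18 and Rhox5) numbered 598 and 1243, lymphatic cells (at least 3 UMIs of Prox1, Mmrn1 and Reln) 20 and 207, and tumor cells (at least 3 UMIs of Krt8, Krt18 and Rhox5 with none of Pecam1 and Flt1) 4902 and 3306. Fibroblasts (Col3a1 at 3000 CPM or more, CPM being UMIs scaled to a common total) numbered 58 and 63, and Ptprc+ cells (at least 1 UMI of the CD45 gene) 488 and 357. Although the sort was for endothelial cells, tumor cells made up 73.0% and 59.0% of the kept cells. The 2 sublines met the tumor rule through different genes. Krt18 stood at 0.0662 CPM in PyMT-M tumor cells and 1003 CPM in PyMT-N, Rhox5 at 669 and 14.5 CPM, and 2 other epithelial markers, Epcam and Krt14, were near 0 in both (at most 3.52 CPM).

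Depth and mixed cells differed between the libraries and touch the results below. The blood endothelial class was shallower in PyMT-M, at a median of 5196 UMIs per cell, than in PyMT-N, at 12601. Cdh5, an endothelial marker that is not in the rule, stood at 965 and 1080 CPM. Pecam1, which is in the rule and so was selected for, stood at 1291 and 1006 CPM. Of the PyMT-N blood endothelial cells 174 also met the lymphatic rule and 58 the Ptprc+ rule, against 8 and 6 in PyMT-M, and the summed level of 9 macrophage markers was 428.6 CPM against 33.2 CPM. In the cells that met the blood endothelial rule alone, 583 and 1013, the macrophage sum was 13.8 CPM in PyMT-M and 11.5 CPM in PyMT-N. Values for these exclusive cells are therefore given beside those for the whole class. The libraries shared 20 barcodes, of which 12 were kept in both and 0 were blood endothelial in both.

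CCL2 and CCL7 are chemokines that bind CCR2 and bring classical monocytes out of bone marrow and into tissue. CSF1 and IL-34 are ligands of the receptor CSF1R, on which the survival, proliferation and differentiation of macrophages depend. CX3CL1 is made as a membrane-bound chemokine, is cut from the cell surface by ADAM10 and ADAM17, and binds CX3CR1 on patrolling monocytes and on macrophages. Endothelium, fibroblasts and tumor cells can each make these factors, and inflamed endothelium is a known source of CCL2 and CX3CL1.

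Of the members only Csf1 and Cx3cl1, both higher in blood endothelial cells of PyMT-M, had a window around the gene start at hand. The windows are shown for the NF-kB, AP-1, interferon and STAT motifs of regulators listed further on, and for the Sp1 motif. Each window runs from 250 bases before to 50 after the RefSeq gene start on GRCm38.p6, with motif matches in capitals. The Csf1 window lies at chr3:107760420-107760719 on the minus strand and the Cx3cl1 window at chr8:94771930-94772229 on the plus strand.
Csf1: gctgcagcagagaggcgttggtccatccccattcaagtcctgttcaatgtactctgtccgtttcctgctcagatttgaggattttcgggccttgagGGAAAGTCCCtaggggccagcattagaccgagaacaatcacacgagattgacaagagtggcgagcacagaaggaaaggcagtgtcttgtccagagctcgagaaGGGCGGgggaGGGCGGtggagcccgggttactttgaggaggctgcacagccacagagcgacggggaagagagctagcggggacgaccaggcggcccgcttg
Cx3cl1: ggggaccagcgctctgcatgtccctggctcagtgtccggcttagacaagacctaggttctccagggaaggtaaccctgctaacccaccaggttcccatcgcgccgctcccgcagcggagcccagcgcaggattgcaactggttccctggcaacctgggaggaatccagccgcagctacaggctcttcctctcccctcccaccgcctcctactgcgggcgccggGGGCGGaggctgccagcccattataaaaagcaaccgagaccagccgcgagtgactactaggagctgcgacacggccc
Both strands were searched. The Csf1 window held 1 match to the NF-kB consensus, 154 bases before the start, and 2 matches to the Sp1 motif GGGCGG, while the Cx3cl1 window held 1 Sp1 match and none for NF-kB. Neither held the AP-1 motif TGANTCA, the interferon-stimulated response element or the STAT motif TTCNNNGAA. Of 32851 gene windows of this length 8.46% held the NF-kB consensus, 7.81% the AP-1, 3.44% the interferon, 8.30% the STAT and 35.7% the Sp1 motif. A match is a description of the letters and not a binding site.

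Ccl2 was the member with the largest difference in blood endothelial cells. It stood at 115.7 CPM in PyMT-M (95% Poisson interval 104.5 to 127.9) and 16.3 CPM in PyMT-N (14.4 to 18.3), a 7.12-fold ratio or 2.83 on the log2 scale (2.61 to 3.06). All intervals in this text cover counting error only and not the difference between tumors. In the exclusive cells the levels were 116.6 and 6.62 CPM, a 17.6-fold ratio (log2 4.14, 3.8 to 4.48), since 91 of the 281 Ccl2 UMIs of PyMT-N remained there against 380 of 387 in PyMT-M. The PyMT-N cells left out also met the lymphatic or the Ptprc+ rule. All PyMT-N lymphatic cells held 129 Ccl2 UMIs, 3 of them in cells of that rule alone. All Ptprc+ cells held 132, with 35 in cells of that rule alone. A UMI of Ccl2 was found in 15.1% of blood endothelial cells in PyMT-M (Clopper-Pearson interval 12.3 to 18.2) and 5.55% in PyMT-N (4.34 to 6.97). Thinning every cell to 2000 UMIs, which took 560 and 1242 cells, gave shares of 7.54% and 1.67%.

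The Ccl2 of blood endothelial cells was carried by few of them. In PyMT-M 90 cells held the 387 UMIs, 28 of them with 3 or more and 8 with 10 or more, and the highest cell held 91. PyMT-N had 69 cells with a UMI, 24 with 3 or more and 7 with 10 or more, with a highest value of 32. The 5 highest cells thus held 46.0% of all Ccl2 UMIs in PyMT-M, against 37.7% for PyMT-N. Without the single highest cell of each library the levels were 89.1 and 14.4 CPM, so both libraries had most cells at 0 and a small number with many molecules.

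**Figure D1:**
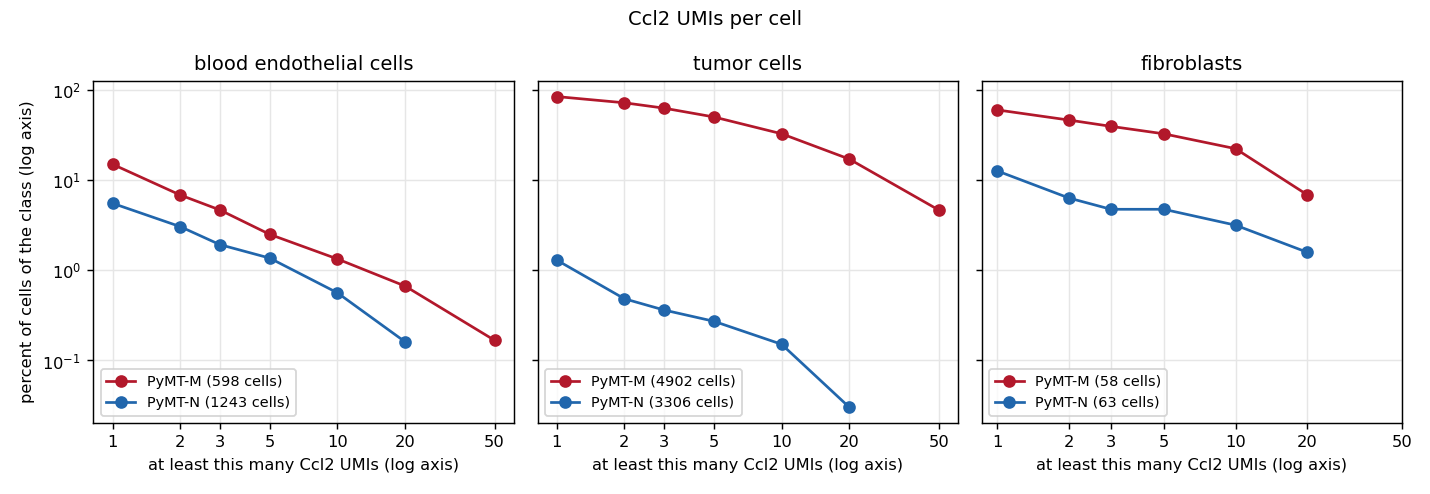
Percent of cells (log axis) with at least the number of Ccl2 UMIs on the log x axis, per library, for blood endothelial cells, tumor cells and fibroblasts. At 1 UMI the blood endothelial curves start at 15.1% and 5.55%, the tumor cell curves at 84.9% and 1.30%, and PyMT-M lies above PyMT-N at every number drawn.

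The 28 PyMT-M blood endothelial cells with 3 or more Ccl2 UMIs had endothelial markers at a summed 7451 CPM and macrophage markers at 22.0 CPM. The endothelial sum includes the genes of the blood endothelial rule. The 24 such cells of PyMT-N had endothelial markers at 4833 CPM, but also macrophage markers at 4206 CPM and lymphatic markers at 4381 CPM. Among them, 10 met the blood endothelial rule alone, and these had endothelial markers at 10151 CPM and macrophage markers at 35.2 CPM. The genes most raised beside Ccl2 in both libraries, over the whole class, were Cxcl10, Mertk, Nptx1, Apln and Prune2. Cxcl10, an interferon-induced chemokine, was at 579 CPM in Ccl2-rich and 184 CPM in Ccl2-free cells of PyMT-M, and at 516 and 53.3 CPM in PyMT-N. Apln, the apelin gene of sprouting tip cells, was at 949 and 375 CPM in PyMT-M and at 351 and 132 CPM in PyMT-N. Because the PyMT-N cells included those that also met another rule, and the 10 exclusive cells were too few to rank, this list describes the class as gated.

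Ccl7, encoded beside Ccl2 in the same chemokine cluster, did not follow it in blood endothelial cells as gated. It had 14 UMIs in PyMT-M (4.19 CPM, 2.29 to 7.03) and 88 in PyMT-N (5.09 CPM, 4.08 to 6.27), with a log2 ratio of -0.28 (-1.21 to 0.54). In PyMT-N 7 cells held 3 or more Ccl7 UMIs, and these had macrophage markers at 10138 CPM and endothelial markers at 417 CPM, while the cells without Ccl7 had 208.5 and 8874 CPM. In the exclusive cells 11 UMIs remained in PyMT-M (3.37 CPM) and 0 in PyMT-N. A count of 0 in 1013 cells allows up to 0.218 CPM and a share of 0.296% of cells. At that limit Ccl7 was 15.5-fold higher in PyMT-M exclusive cells, the direction of Ccl2, though on 11 UMIs.

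Csf1, the main macrophage growth factor, had few molecules in each cell that held any. In blood endothelial cells it stood at 33.5 CPM in PyMT-M (27.6 to 40.3, 112 UMIs in 81 cells) and 7.0 CPM in PyMT-N (5.81 to 8.36, 121 UMIs in 94 cells). That is 4.79-fold, or 2.26 on the log2 scale (1.87 to 2.64). No cell held more than 4 Csf1 UMIs in PyMT-M or 5 in PyMT-N, in contrast to Ccl2. The shares of cells were 13.5% and 7.56%, and 5.99% and 1.42% after thinning. Exclusive cells gave nearly the same, with 32.5 and 6.48 CPM and a log2 ratio of 2.33 (1.91 to 2.75).

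Il34, the second CSF1R ligand, was scarce in blood endothelial cells of both libraries. It had 10 UMIs in PyMT-M (2.99 CPM, 1.43 to 5.50) and 49 in PyMT-N (2.83 CPM, 2.10 to 3.75), and the log2 ratio was 0.08 (-1.07 to 1.08). A difference of up to 2-fold in either direction was thus not detectable at this depth. Cx3cl1, like Csf1 and Ccl2, was higher in PyMT-M and stood at 28.7 CPM in PyMT-M (23.3 to 35.1, 96 UMIs in 65 cells) and 5.15 CPM in PyMT-N (4.14 to 6.34, 89 UMIs in 68 cells). The log2 ratio of Cx3cl1 was 2.48 (2.05 to 2.91) over the class, a 5.58-fold ratio, and 2.20 (1.77 to 2.64) in exclusive cells. A Cx3cl1 UMI was found in 10.9% and 5.47% of cells, or 5.15% and 1.13% after thinning.

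The share of genes past 2-fold gives the scale of these ratios. Of 8995 genes with at least 200 UMIs in blood endothelial cells 7.64% were past 2-fold in either direction, with 2.47% higher and 5.17% lower in PyMT-M. The median log2 ratio of the ranked genes was -0.02. Ccl2 and Csf1 were the members above that minimum and both were past 2-fold, with 11 genes above Ccl2 and 19 above Csf1 in the order of ratios. Cx3cl1, with 185 UMIs, fell under the minimum, and its ratio would have been passed by 14 ranked genes. In the exclusive cells 5.37% of 8174 genes were past 2-fold, made up of 2.69% higher and 2.68% lower in PyMT-M, and 2 genes had a higher ratio than Ccl2. Since the genes were picked with these ratios known, nothing follows from their places.

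**Figure D2:**
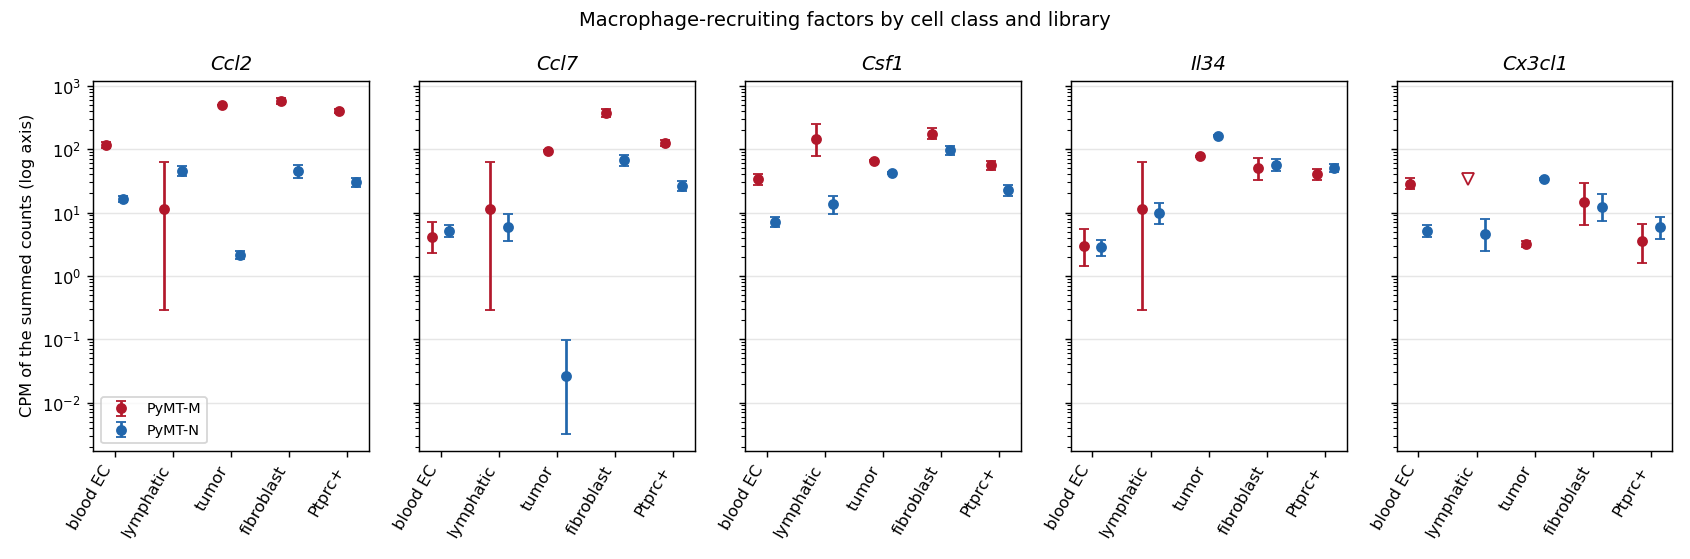
CPM of the 5 genes in each class and library on a log axis, as points with 95% Poisson intervals that cover counting error only, and an open triangle at the limit a count of 0 allows. Ccl2 in PyMT-M tumor cells (494.2 CPM) and fibroblasts (578.8 CPM) stood above its blood endothelial level (115.7 CPM), while Cx3cl1 in PyMT-M was highest in blood endothelial cells (28.7 CPM).

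Free RNA in droplets can give a UMI to cells that do not express a gene, so lymphocytes, which should lack Ccl2 and are no main source of the other factors, served as a background. The 219 PyMT-M and 215 PyMT-N lymphocytes among Ptprc+ cells (medians of 1459 and 5627 UMIs) had a Ccl2 UMI in 8.68% and 4.19% of cells. After thinning to 2000 UMIs the lymphocyte shares were 9.66% and 0.844%, and in PyMT-M this lay above the thinned blood endothelial share of 7.54%. Thinning leaves out cells under 2000 UMIs, which were most of the PyMT-M lymphocytes, so their thinned share is that of the deeper cells. Summed over the class, the lymphocytes of PyMT-M held much tumor RNA, however, though it lay in few of the cells. Tumor genes were taken as the 12 genes with at least 100 CPM in PyMT-M tumor cells and a level at least 100-fold lower in PyMT-N blood endothelial cells, and they stood in PyMT-M lymphocytes at a median of 52.7% of their tumor level. Lymphocytes outside the blood endothelial class and held to its limit, at most 1 UMI of Krt8, Krt18 and Rhox5, numbered 200 and 169. In PyMT-M these 200 cells held 344277 of the 782368 UMIs of all 219, and 11 of their 101 Ccl2 UMIs. The shares of 8.68% and 9.66% include the cells left out here. The 200 cells had the tumor genes at 2.84% of the tumor level, beside 3.92% in blood endothelial cells. In the 2 libraries these lymphocytes had medians of 1366.5 and 4268 UMIs, below the 5195.5 and 12601 of blood endothelial cells. They were thus matched in this limit and not in depth. They also held macrophage markers, at a summed 90.0 CPM in PyMT-M and 413.6 CPM in PyMT-N, against 13.8 and 11.5 CPM in exclusive blood endothelial cells, and the part of these markers in the lymphocyte levels was not tested.

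Against these lymphocytes, matched in the limit on tumor UMIs only, Ccl2, Csf1 and Cx3cl1 of PyMT-M blood endothelial cells stood higher. Lymphocyte Ccl2 was 32.0 CPM in PyMT-M (16.0 to 57.2, 11 UMIs), Csf1 8.71 CPM (1.80 to 25.5, 3 UMIs) and Cx3cl1 2.91 CPM (0.0735 to 16.2, 1 UMI), and none of these intervals reached the blood endothelial one. The intervals cover counting error only, and blood endothelial Ccl2 UMIs were clumped in few cells, so their lack of overlap is a description and not a test. The shares of these lymphocytes with a UMI were 3.50%, 1.00% and 0.50%. In PyMT-N lymphocytes Ccl2 was 4.24 CPM (1.16 to 10.9, 4 UMIs) and Csf1 8.48 CPM (3.66 to 16.7, 8 UMIs), and these intervals held the 6.62 CPM of Ccl2 in exclusive blood endothelial cells and the 7.0 CPM of Csf1 in the class. Cx3cl1 had 0 UMIs in 169 PyMT-N lymphocytes, which allows up to 3.18 CPM, below the 5.15 CPM of blood endothelial cells. The lymphocyte levels of Ccl7 were 8.71 CPM (1.80 to 25.5) and 9.54 CPM (4.36 to 18.1), and blood endothelial cells did not stand above them in either library. Il34 had 0 UMIs in PyMT-M lymphocytes, allowing up to 8.71 CPM, and 2.12 CPM in PyMT-N, and its blood endothelial levels could not be separated from these.

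Tumor RNA was gauged in the same way within blood endothelial cells. The 12 tumor genes stood there at a median of 3.92% of their PyMT-M tumor level (quartiles 2.19% and 5.67%, highest 16.5% for Tpm2). As a percent of their own tumor level, Ccl2 stood at 23.4%, Csf1 at 50.6% and Cx3cl1 at 908%, each above all 12 genes, while Ccl7 at 4.40% was above 7 of them and Il34 at 3.86% above 6. The ratio of Ccl2 to Ccl7 UMIs was 5.19 in PyMT-M tumor cells (5.09 to 5.29) and 27.6 in blood endothelial cells (16.3 to 51.0). In the 413 blood endothelial cells with none of these tumor transcripts Ccl2 was 81.9 CPM, Csf1 34.4 CPM and Cx3cl1 33.5 CPM, and in the other 185 cells 176.5, 31.8 and 20.1 CPM. In PyMT-N 36 tumor genes stood at a median of 1.22% of the tumor level, where Csf1 was at 16.7%, Cx3cl1 at 15.1%, Il34 at 1.72% and Ccl2 at 758%.

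**Figure D3:**
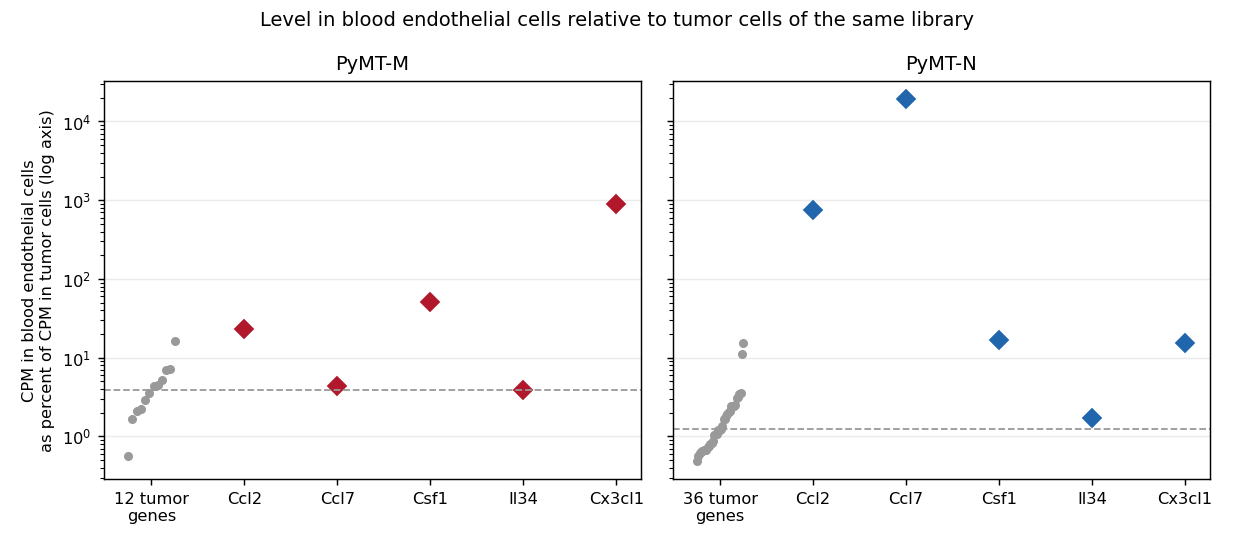
Level in blood endothelial cells as a percent of the level in tumor cells of the same library, on a log axis, for the tumor genes (grey points, dashed line at their median) and for the 5 factors (diamonds). In PyMT-M the tumor genes had a median of 3.92% and Ccl2 stood at 23.4%, Csf1 at 50.6% and Cx3cl1 at 908%.

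Values on either side of the gates were as follows. In PyMT-M the 30 cells with 5 to 6 endothelial UMIs had Ccl2 at 35.3 CPM, Csf1 at 53.0 CPM and Cx3cl1 at 8.84 CPM, and the 53 cells with 3 to 4 had 65.6, 171 and 6.56 CPM. Cells with no tumor UMI and with 1 tumor UMI had Ccl2 at 115.1 and 122.2 CPM. Just outside that gate, 99 PyMT-M cells with at least 5 endothelial and 2 or more tumor UMIs had Ccl2 at 419 CPM, Ccl7 at 82.7 CPM and Cx3cl1 at 6.62 CPM, close to the tumor pattern described next.

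Tumor cells held most of the members' RNA in PyMT-M, as they did of all RNA. Of 139729636 UMIs in kept PyMT-M cells 120865164 lay in tumor cells and 3343726 in blood endothelial cells. Of 66435 Ccl2 UMIs in kept cells 89.9% lay in tumor cells and 0.583% in blood endothelial cells, and of 9269 Csf1 UMIs 86.3% and 1.21%. The tumor cell shares of Ccl7 and Il34 were 88.6% and 89.8%. Cx3cl1 had 70.3% of its 543 UMIs in tumor cells and 17.7% in blood endothelial cells. In PyMT-N, with 573 Ccl2 UMIs in all, 28.3% lay in tumor cells and 49.0% in blood endothelial cells, though only 15.9% in exclusive ones. Of all 114669155 UMIs there 75557854 lay in tumor cells and 17287152 in blood endothelial cells. The PyMT-M library thus held far more Ccl2, nearly all of it outside the endothelium.

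Between the tumor cells of the sublines, both CCR2 ligands were close to absent in PyMT-N. Ccl2 stood at 494.2 CPM in PyMT-M (490.2 to 498.2) with a UMI in 84.9% of cells, and at 2.14 CPM in PyMT-N (1.83 to 2.50) with a UMI in 1.30%, a log2 ratio of 7.85 (7.63 to 8.08). The 5 highest PyMT-N cells held 55.6% of its 162 UMIs. Ccl7 stood at 95.2 CPM in PyMT-M, in 49.0% of cells, and had 2 UMIs in PyMT-N (0.0265 CPM), a log2 ratio of 11.81 (9.96 to 14.86). At an equal depth of 2000 UMIs the shares for Ccl2 were 40.7% and 0.295%. Of 12553 genes ranked in tumor cells 42.0% were past 2-fold, with 19.7% higher and 22.3% lower in PyMT-M, so a large part of the transcriptome differed between the tumor cells, and 174 genes had a higher ratio than Ccl2 and 78 a higher one than Ccl7.

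The other 3 members had tumor cell patterns of their own. Csf1 differed little, with 66.2 CPM in PyMT-M and 41.9 CPM in PyMT-N and a log2 ratio of 0.66 (0.60 to 0.72). Il34 was lower in PyMT-M, at 77.5 against 164.4 CPM, a log2 ratio of -1.08 (-1.12 to -1.05), with a UMI in 74.8% and 77.6% of cells. Cx3cl1 was 10.8-fold lower in PyMT-M, at 3.16 against 34.0 CPM and in 5.94% against 41.9% of cells, a log2 ratio of -3.43 (-3.59 to -3.27). The direction for Cx3cl1 in tumor cells was therefore opposite to that in blood endothelial cells, where PyMT-M was higher. In PyMT-M the tumor cell level of Cx3cl1, 3.16 CPM, lay below the 28.7 CPM of blood endothelial cells.

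Fibroblasts were few and held high levels of both CCR2 ligands in the PyMT-M library. Summed fibroblast markers stood at 28470 CPM in PyMT-M and 35526 CPM in PyMT-N, with tumor markers at 327.6 and 165.3 CPM. Of the 58 PyMT-M fibroblasts 12 also met the tumor rule, and over the 58 cells the 12 tumor genes, of which 3 are collagen VI genes, stood at a median of 62.9% of the tumor level (45.8% in exclusive fibroblasts), whose part in these values was not tested. Ccl2 stood at 578.8 CPM in PyMT-M (516.3 to 646.9, in 60.3% of 58 cells) and 45.1 CPM in PyMT-N (35.1 to 57.0, in 12.7% of 63 cells), a log2 ratio of 3.68 (3.30 to 4.08), and at 531.2 CPM (454.4 to 617.4) and 52.7 CPM in exclusive fibroblasts. In PyMT-N 5 cells held 95.7% of the Ccl2 UMIs, and without the highest cell the level was 19.5 CPM. Ccl7 stood at 368.5 and 66.6 CPM, a log2 ratio of 2.47 (2.12 to 2.83), and was found in 55.2% and 33.3% of cells. Csf1 in fibroblasts was 176.8 and 96.0 CPM (log2 0.88, 0.49 to 1.26), Il34 50.3 and 56.8 CPM, and Cx3cl1 14.9 and 12.4 CPM, and the intervals of the Il34 and Cx3cl1 ratios included 0. Of 1760 genes ranked in fibroblasts 16.0% were past 2-fold, with 4.32% higher and 11.7% lower in PyMT-M.

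Ptprc+ cells, which include leukocytes that escaped the CD45 depletion, also differed. Ccl2 stood at 401.8 CPM in Ptprc+ cells of PyMT-M and 29.9 CPM in PyMT-N (log2 3.75, 3.49 to 4.02), and Ccl7 at 124.5 and 26.5 CPM (log2 2.23, 1.92 to 2.55). Of 5630 ranked genes in Ptprc+ cells 17.5% were past 2-fold, with 7.28% higher and 10.3% lower in PyMT-M. The PyMT-M tumor genes stood at a median of 61.9% of their tumor level in Ptprc+ cells, and the PyMT-N set at 25%. Of the 1029 Ccl2 UMIs of PyMT-M Ptprc+ cells 556 lay in 132 cells that were neither myeloid nor lymphocyte by their markers. In these 132 cells the tumor genes stood at 87.7% of the tumor level, so the class value is not that of leukocytes alone. Myeloid cells with at most 1 UMI of the 3 tumor markers, 123 in PyMT-M and 72 in PyMT-N, had those genes at 4.89% and 3.71%. In these cells Ccl2 stood at 598.8 and 33.9 CPM (log2 4.14, 3.57 to 4.77), and Ccl7 at 362.6 and 21.3 CPM (log2 4.09, 3.36 to 4.91). Their ratio of Ccl2 to Ccl7 UMIs was 1.65 in PyMT-M (1.35 to 2.03), below the 5.19 of tumor cells. Il34 had 0 UMIs in these cells in PyMT-M and 3 in PyMT-N, although the ungated Ptprc+ cells had 40.6 and 50.9 CPM, and Csf1 stood at 28.6 and 36.4 CPM with overlapping intervals.

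Lymphatic cells gave little information for PyMT-M, with 20 cells. Csf1 had 13 UMIs in 5 of them (146 CPM, 77.8 to 250) against 13.4 CPM in PyMT-N, while Ccl2 had 1 UMI (11.2 CPM, 0.284 to 62.6) against 45.5 CPM, a log2 ratio of -2.02 (-7.33 to 0.49). Of 2911 genes ranked in lymphatic cells 18.9% were past 2-fold, with 4.71% higher and 14.2% lower in PyMT-M. Cx3cl1 had 0 UMIs in PyMT-M, which allows up to 33.7 CPM. In PyMT-N the 32 cells that met the lymphatic rule alone held 3 of the 129 Ccl2 UMIs. These 32 cells had the PyMT-N tumor genes at a median of 57.7% of their tumor level, against 11.2% in lymphatic cells as gated. Their summed endothelial markers stood at 2867 CPM, against 4796 CPM as gated. The part of tumor RNA in their Ccl2 level was not tested. The tumor genes of PyMT-M stood at 27.4% of their tumor level in its lymphatic cells, and their part in these values was not tested.

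The order of levels within a library followed from these values. Overlap of counting intervals is used here as a description and not as a test. Leaving lymphatic cells aside, Ccl2 in PyMT-M ran from fibroblasts through tumor and Ptprc+ cells to blood endothelial cells, but exclusive fibroblasts, at 531.2 CPM, could not be separated from tumor cells, nor could the myeloid cells with few tumor UMIs be separated from fibroblasts. Ccl7 ran from fibroblasts to Ptprc+, tumor and blood endothelial cells with no overlap of intervals between these classes, and the same myeloid cells again overlapped fibroblasts. For Csf1 fibroblasts and lymphatic cells, and then tumor and Ptprc+ cells, overlapped, and blood endothelial cells came last among the classes as gated. Ptprc+ cells with few tumor UMIs did not stand above the 33.5 CPM of blood endothelial cells, at 28.6 CPM in myeloid cells and 8.71 CPM in lymphocytes. For Cx3cl1 blood endothelial cells came first but overlapped fibroblasts, then came Ptprc+ and tumor cells that overlapped. In PyMT-N lymphatic cells and fibroblasts as gated could not be separated for Ccl2, at 45.5 and 45.1 CPM, and tumor cells came last. Exclusive lymphatic cells had 6.33 CPM (3 UMIs) and exclusive fibroblasts 52.7 CPM. Those lymphatic cells held more tumor RNA than lymphatic cells as gated (57.7% against 11.2% of the tumor level), so their value is not that of a cleaner lymphatic class. For Il34 and Cx3cl1 in PyMT-N tumor cells came first, at 164.4 and 34.0 CPM.

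Blood endothelial cells are not uniform, and their levels were compared between states defined by summed markers, taking cells above the 80% quantile of both libraries together. These states are ranges that overlap and not cell types. Ccl2 in PyMT-M was 255 CPM (226 to 286) in the 179 tip-high cells, which carry sprouting genes, and 46.9 CPM in the rest, or 176 CPM in tip-high cells without the highest cell. In PyMT-N it was 8.09 CPM (5.07 to 12.2) and 17.8 CPM, an opposite order that turned to 9.19 and 6.14 CPM in exclusive cells. Arterial-high cells had less Ccl2 in both libraries, with 17.2 against 131.6 CPM in PyMT-M and 2.33 against 19.7 CPM in PyMT-N, although the PyMT-N value was 8 UMIs of 1 cell. Cells high for capillary lipid-handling genes were also lower, at 59.9 against 144.5 CPM and at 0.971 against 18.3 CPM, with 2 UMIs behind the last low value. The arterial and capillary values of PyMT-N are for the class as gated, where only 91 of 281 Ccl2 UMIs lay in exclusive cells. The part that cells of more than 1 rule had in these values was not tested. Cycling-high cells of PyMT-M had Ccl2 at 181 against 76.3 CPM, or 111 CPM without the highest cell.

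Csf1 and Cx3cl1 also varied between states, and Ccl2 is not compared with them in venous-high or interferon-high cells. Venous-high cells, with adhesion genes of leukocyte-recruiting vessels, had Csf1 at 70.7 CPM (49.2 to 98.3) against 27.0 CPM in PyMT-M and at 16.0 CPM (11.9 to 21.1) against 5.01 CPM in PyMT-N. The same held in exclusive cells, at 58.3 against 27.1 CPM and at 13.8 against 4.99 CPM. Interferon-high cells of PyMT-N had Csf1 at 25.7 against 5.20 CPM, whereas in PyMT-M the values were 30.5 and 35.6 CPM. These interferon values are for the class as gated, which includes cells that also met another rule. Arterial-high cells had the most Cx3cl1, at 40.9 CPM (24.6 to 63.9) against 26.7 CPM in PyMT-M with overlapping intervals, and at 11.1 CPM (7.83 to 15.2) against 3.68 CPM in PyMT-N. Cx3cl1 was low in tip-high cells of PyMT-M, at 13.6 against 36.2 CPM, and low in cycling cells of PyMT-N, at 1.54 against 5.98 CPM. Tip-high cells made up 29.9% and 15.2% of the class and interferon-high cells 41.1% and 9.81%, so the shares of cells above the common cuts also differed. Cells were not thinned to an equal depth for these cuts, with medians of 5195.5 and 12601 UMIs in the class. The part of depth in these shares was not tested.

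**Figure D4:**
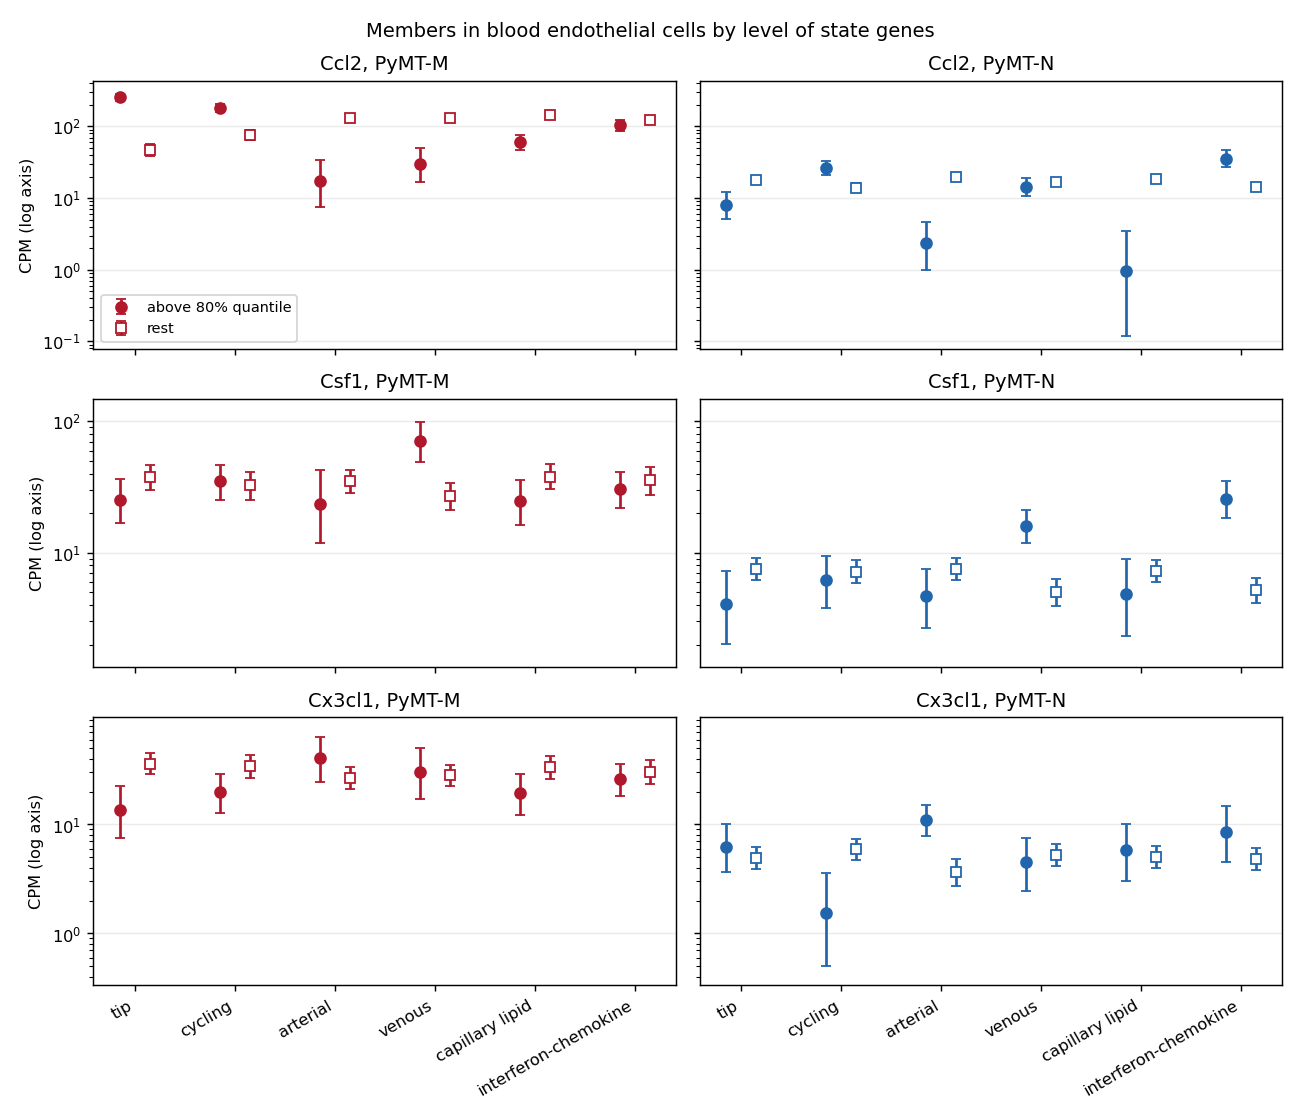
CPM (log axis) of Ccl2, Csf1 and Cx3cl1 in blood endothelial cells above the 80% quantile of each state's summed genes (filled) and in the rest (open squares), per library, with 95% Poisson intervals that cover counting error only. In PyMT-M Ccl2 was 255 CPM in tip-high cells and 17.2 CPM in arterial-high cells, and Csf1 was 70.7 CPM in venous-high cells.

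Detection of the members in the same cell was compared at equal depth, since deeper cells hold more of everything. In PyMT-M tumor cells a Ccl7 UMI was found in 55.1% of 4160 cells with Ccl2 and 14.7% of 742 without it, and after thinning to 2000 UMIs in 21.8% and 6.86%. Csf1 was found in 70.8% and 56.1% of these cells, and in 14.8% and 11.1% after thinning. In blood endothelial cells of PyMT-M Csf1 was found in 23.3% of the 90 cells with Ccl2 and 11.8% of the 508 without, but in 7.97% and 5.83% after thinning. Cx3cl1 was found in 13.3% and 10.4% of the same cells, and in 3.26% and 5.30% after thinning, so for Csf1 and Cx3cl1 in PyMT-M the differences were smaller or turned at equal depth. Ccl7 was found in 5.56% and 1.57% of these cells, and in 2.62% and 0.678% after thinning. In PyMT-N the thinned shares with and without Ccl2 were 2.01% and 1.41% for Csf1 and 3.67% and 1.09% for Cx3cl1. For Ccl7 they were 7.48% and 0.233%, with no Ccl7 in exclusive cells.

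Likeness of pattern was taken as Pearson's r of log2(CPM + 5) over 10 points, the 5 classes in 2 libraries, and is a description of points that share libraries, cells and depth. Among the members Ccl2 and Ccl7 were most alike (r = 0.82), then Ccl7 and Csf1 (r = 0.61), and all other pairs lay between -0.22 and 0.42. Over 13877 genes the closest to Ccl2 were Ndc1 (r = 0.97), Ipo5, Mtfp1, Akip1 and Sgo1. The closest to Ccl7 were Igfbp6 (r = 0.95), Prrt1, Adamtsl5, Gm34667 and Tnfaip6. Csf1 was closest to Ccdc107 (r = 0.95), Cryab, Speg, Mcfd2 and Rdh13. Il34 was closest to Pak1 (r = 0.98), Arhgap22, Pla2g7, Npc2 and Gnao1, and the genes close to Cx3cl1 included E230034D01Rik, ENSMUSG00000121317, Stard3nl and Afap1l2.

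Other monocyte chemokines did not share the direction of Ccl2 in blood endothelial cells as gated. Of 10 in the list 5 were ranked. Past 2-fold Ccl2 was higher in PyMT-M, beside 2.47% of all ranked genes, and 4 were lower, beside 5.17%. The list's median log2 ratio was -1.98 beside -0.02 for all ranked genes. The 4 were Ccl12 (-3.70), Ccl8 (-2.47), Ccl5 (-1.98) and Ccl4 (-1.18). All are chemokines that macrophages or lymphocytes make, and in exclusive cells Ccl8 had 0 and 3 UMIs and Ccl12 2 and 4, leaving Ccl2 as the one ranked gene of the list. Ccl5 was still lower in PyMT-M there, with 11 and 124 UMIs (3.37 against 9.02 CPM, log2 -1.42, -2.46 to -0.53). In tumor cells 4 of the 10 were ranked and all 4 were higher in PyMT-M, beside 19.7% of all ranked genes, namely Ccl2, Ccl7, Ccl5 (57.3 against 3.30 CPM, log2 4.12) and Ccl4 (log2 1.81), with a median of 5.98 beside -0.04. Of the 3 growth factors Csf1 was ranked and higher in blood endothelial cells, and Csf2, the granulocyte-macrophage factor, had 0 UMIs in both libraries.

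The receptors that answer these factors were rare in blood endothelial cells. Ccr2, the receptor of both chemokines, had 2 UMIs in PyMT-M against 55 in PyMT-N, with 0 in exclusive cells of either. Csf1r had 4 and 186 UMIs, and 0 and 1 in exclusive cells. Of 10 receptors 3 were ranked, with a median log2 ratio of -1.92 beside -0.02 for all ranked genes. Past 2-fold 2 were lower in PyMT-M, beside 5.17% of all ranked genes, and 1 was higher, beside 2.47%. That was Ackr1, the Duffy receptor that binds CCL2 and many other chemokines on venules without signaling, at 56.5 CPM in PyMT-M and 17.9 CPM in PyMT-N (log2 1.66, 1.39 to 1.93), and at 58.0 and 21.8 CPM in exclusive cells. Ackr2, a scavenging receptor for CC chemokines known from lymphatic endothelium, was at 3.29 and 32.5 CPM (log2 -3.30), and at 1.53 and 12.7 CPM in exclusive cells. Cx3cr1 was at 3.89 and 14.7 CPM over the class but at 3.99 and 4.51 CPM in exclusive cells.

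Proteases that cut the factors were mostly within 2-fold in blood endothelial cells. All 5 were ranked and 1 was past 2-fold, beside 7.64% of all ranked genes. That was Mmp2, which trims CCL7 (log2 -1.32, but 0.52 in exclusive cells), and the list median was -0.59. Adam10, the constitutive CX3CL1 sheddase, was at 239 and 359 CPM (log2 -0.59), and Adam17, the inducible one, had a log2 ratio of -0.13. In tumor cells 4 of 5 proteases were lower past 2-fold in PyMT-M, beside 22.3% of all ranked genes, with Adam10 at 33.5 and 143.9 CPM (log2 -2.10), and Adam17 was within 2-fold at 0.45.

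Regulators of inflammatory genes stood close between the libraries in blood endothelial cells. All 12 NF-kB and interferon regulators were within 2-fold in blood endothelial cells (median log2 -0.13). Of all ranked genes in these cells 7.64% were past 2-fold. In tumor cells, where 19.7% of ranked genes were higher and 22.3% lower, 2 were higher, Jun at 252.5 against 0.807 CPM (log2 8.29) and Nfkbia (log2 1.04), and 3 were lower, Fos at 4.25 against 353.5 CPM (log2 -6.38), Irf1 (-1.61) and Tnfaip3 (-1.39). Receptors for TNF, interleukin 1 and interferons were within 2-fold in blood endothelial cells, 7 of 7 (median 0.07), with Il1r1 at 0.98. In tumor cells 6 of 7 were lower in PyMT-M (median -1.24), beside 22.3% of all ranked genes. Of 6 neutrophil factors none was ranked in blood endothelial cells, where Il6 stood at 17.4 and 5.38 CPM, while in tumor cells Cxcl1 was higher in PyMT-M (log2 5.85) and Cxcl2 (-1.29) and Csf3 (-2.73) were lower.

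**Figure D5:**
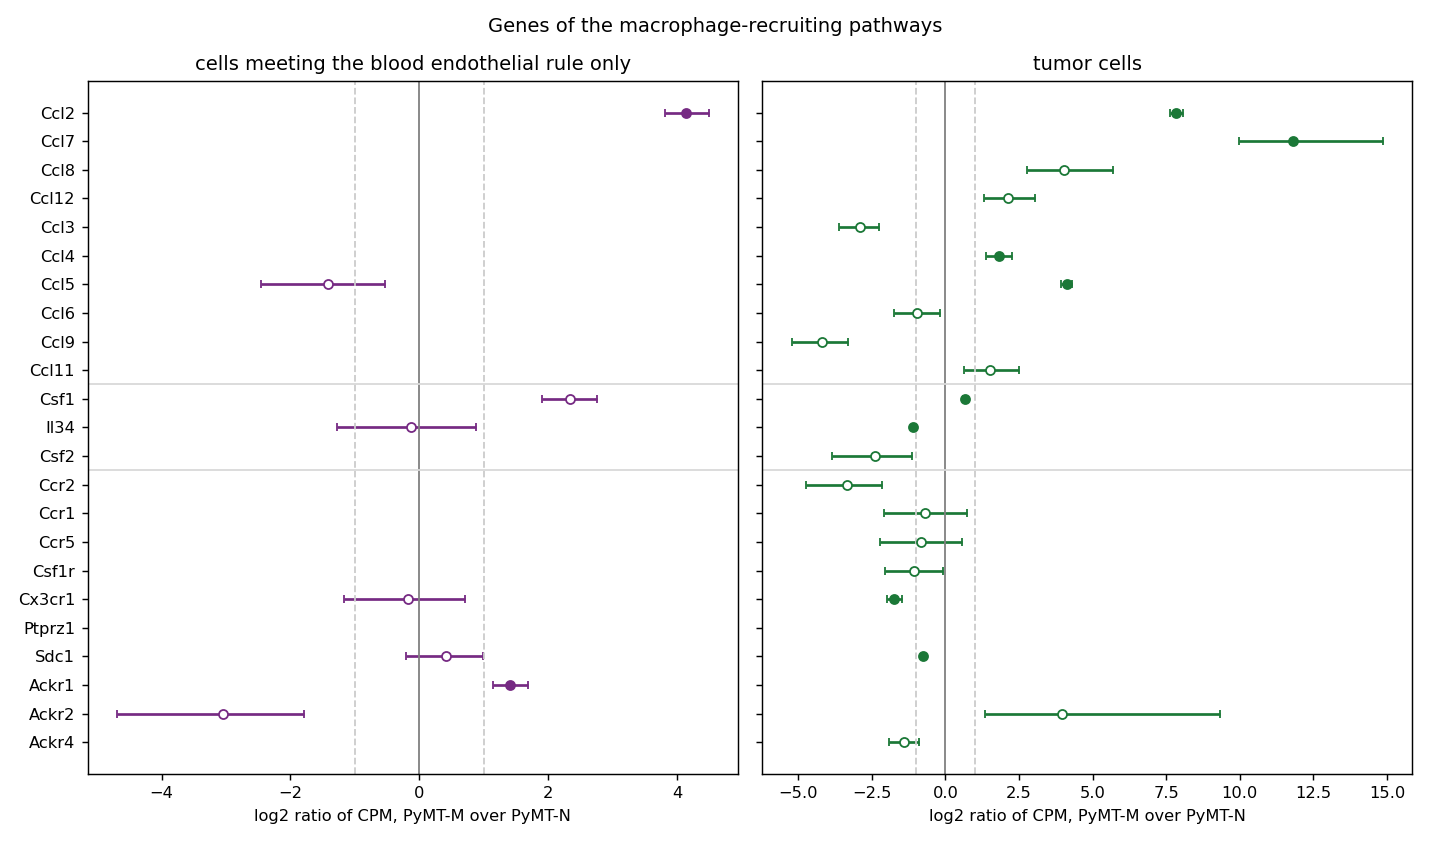
Log2 ratio between the libraries (above 0, higher in PyMT-M) for the chemokine, growth factor and receptor lists with their counting intervals, in exclusive blood endothelial cells on the left and tumor cells on the right. Filled points have at least 200 UMIs, open points fewer, genes under 20 UMIs are not drawn, and dashed lines mark 2-fold. Ccl2 stood at 4.14 and 7.85.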

How the data were processed

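UMI counts per gene and cell barcode, 33696 genes in 2 libraries (PyMT-M and PyMT-N), were used as the authors deposited them, made with Cell Ranger 8.0.0 on mm39 per the submitters' processing notes, and are not normalized. The libraries held 141067264 and 116150425 UMIs in 7821 and 6974 barcodes. Cells with at least 200 genes and at most 10% mitochondrial UMIs were kept. Doublets were not removed, except in an alternative that left out the 6% of barcodes with the highest Scrublet scores (scanpy 1.11.5). Counts were summed per class and library and divided by the class total (CPM). With 1 library per condition there was no test: levels have exact Poisson, shares Clopper-Pearson and ratios exact Poisson-ratio 95% intervals (scipy 1.17.1, Python 3.11.15), which cover counting error only. On counts simulated from the same Poisson model these held the true ratio for 95.3% of 8995 genes in blood endothelial cells. That checks the calculation only. It does not show that the intervals hold for UMIs clumped in few cells, as those of Ccl2 were.

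Ranked genes had at least 200 UMIs over both libraries in a class. A count of 0 was limited by a floor of 3 counts per class and library. The genes named are the 5 members, 7 pathway lists, class markers, the 5 genes most like each member and the 5 most raised beside a member where each library had at least 20 cells with 3 or more of its UMIs, which Ccl2 alone met. The members, rules and lists were chosen with earlier results of these data known. Exclusive classes, tumor gene levels, Ptprc+ subsets (myeloid and lymphocyte, also with few tumor UMIs), UMI ratios between members and values without the highest cell were added after seeing the data. Gene windows were matched by symbol in a RefSeq table on GRCm38.p6, which held 2 of the 5 members. Intron, exon and transcript choice was not examined, and Ccl2, Ccl7 and Il34 windows were not used here.

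The values of 2 single genes that the naming rule covers are not reported here.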

Additional observations from a re-analysis of the deposited data

Results flagged for a closer look

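Cx3cl1 had opposite directions in different cells, with a log2 ratio (PyMT-M to PyMT-N) of 2.48 in blood endothelial cells and -3.43 in tumor cells. With 1 library per condition the difference between the 2 ratios was not tested.

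The remaining values were singled out because they come from barcodes that no comparison used and lie above the level that a count of 0 allows. In the 721 kept PyMT-M cells that met no class rule Ccl2 stood at 400.2 CPM, Ccl7 at 79.2 CPM, Csf1 at 73.6 CPM, Il34 at 74.0 CPM and Cx3cl1 at 4.16 CPM. The 693 such cells of PyMT-N had Ccl2 at 1.32 CPM, Csf1 at 49.95 CPM, Il34 at 152.7 CPM and Cx3cl1 at 30.1 CPM. These levels lay near those of tumor cells of the same library. In the 1102 PyMT-M barcodes outside the limits on genes and mitochondrial UMIs Ccl2 stood at 101.7 CPM, Ccl7 at 35.1 CPM, Csf1 at 35.1 CPM and Il34 at 35.9 CPM. In the 1367 of PyMT-N Csf1 stood at 9.45 CPM, Il34 at 33.1 CPM and Cx3cl1 at 9.45 CPM.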

How the results depend on the processing

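No paired analysis was possible because each condition had 1 library. The log2 ratios of Csf1 (2.16 to 2.49) and Cx3cl1 (2.20 to 2.60) in blood endothelial cells kept their direction and moved by less than their counting interval under all 10 alternatives. Il34 lay between -0.35 and 0.51 and took either sign within its interval. Ccl2 in blood endothelial cells (2.83) was higher in PyMT-M under all 10. It moved to 3.19 with cells limited to within 2-fold of the median number of genes and 3.11 without cells holding a tumor UMI. It was 4.14 without cells of another class, 2.50 as a mean over cells and 3.26 without the 1% of cells with most UMIs. The limit on genes, a kind of filter the study describes, kept 314 of 598 PyMT-M and 1207 of 1243 PyMT-N blood endothelial cells. Ccl7 there (-0.28) turned to 1.08 as a mean over cells and 3.16 without the 1% of cells. Without cells of another class its ratio was not finite but also higher in PyMT-M, with 11 UMIs against 0 in PyMT-N. In tumor cells Ccl2 moved from 7.85 to 11.78 without the 1% of cells, and Ccl7 then had 0 UMIs in PyMT-N. Csf1 in tumor cells moved from 0.66 to 0.86 with totals free of mitochondrial, ribosomal protein and hemoglobin genes, 0.97 as a mean over cells and 0.78 without the 1% of cells. A minimum of 50 UMIs in place of 200 put 1457 genes past 2-fold in blood endothelial cells in place of 687, or 12.2% in place of 7.64%. Beyond these the cause of a shift was not tested. Requiring 3 Ptprc UMIs moved Ccl2 in Ptprc+ cells from 3.75 to 3.01 and Il34 from -0.33 to -0.81.

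With 1 library of 3 pooled tumors per subline, no interval covers the difference between tumors. Members with fewer than 20 UMIs in a class, such as Ccl7 and Il34 in PyMT-M blood endothelial cells, are limited by depth.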
